A study of Homo sapiens with 6 samples.

Results

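HOX cluster genes encode the homeodomain transcription factors of the HOXA, HOXB, HOXC and HOXD clusters. The genes with a value were taken from an expression array platform as those with at least 1 probe set whose only annotated gene symbol was HOXA, HOXB, HOXC or HOXD followed by a number. A probe set is the group of short probes that together measure 1 transcript, and each gene was represented by its brightest probe set over the 6 arrays. This gave 28 HOX genes among the 19775 genes measured. They were all 10 genes of HOXB on chromosome 17, all 9 of HOXC on chromosome 12, 8 of the 9 of HOXD on chromosome 2, and 1 of the 11 of HOXA on chromosome 7. The other 11 of the 39 HOX genes in the RefSeq gene table were not analysed here.

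The cells were CaSki, an established line from a human cervical squamous carcinoma. The TGF-b1 group received recombinant TGF-b1, the transforming growth factor beta ligand that signals through SMAD proteins, at 2 ng/mL, and the untreated group was kept in medium without it. Each group had 3 arrays of total RNA, all from this 1 line. How long the cells were treated is not stated in the labels, which also do not say whether the 3 arrays of a group came from separate cultures, so p-values measure the spread between these arrays, which may be technical.

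HOX proteins bind DNA together with cofactors of the TALE homeodomain class, the PBX, MEIS and PKNOX proteins, and in the embryo they give cells their position along the head to tail axis. The genes of a cluster lie in a row in the order of their paralogue number, with low numbers active towards the head and high numbers towards the tail, and genes with the same number in different clusters are relatives. Adult epithelia and tumour lines keep a part of such a pattern, which is maintained by Polycomb proteins (silencing) and Trithorax proteins (activity), and retinoic acid is a known inducer of low-numbered HOX genes.

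Values are log2 expression estimates, where a difference of 1 is a doubling. Array medians over all 54675 probe sets lay between 4.15 and 4.18, and correlations between arrays were 0.9943 to 0.9963 within a group and 0.9916 to 0.9930 between groups. SMAD7 and PMEPA1, feedback inhibitors that TGF-b signalling induces, were 3.17-fold and 3.94-fold higher with TGF-b1 (limma, adjusted p 7.9e-05 and 9.8e-06). All 10 epithelial markers measured lay above the array medians. At an adjusted p below 0.05 by limma, 3 of them rose (KRT14, KRT8 and LAMB3) and 1 fell (EPCAM). Over all genes, 4.03% rose and 4.47% fell. Of 9 fibroblast markers 1 rose, the collagen gene COL1A1, of 5 endothelial markers 1 rose and 1 fell, both below the array medians, and of 6 immune markers 0 were called. The array numbered 1 in each group stood apart from the others on the second principal component, which held 20.2% of the variance. Its 3′ minus 5′ control signal (a log2 difference) was 1.15 with TGF-b1 and 1.19 untreated. On the other 4 arrays that difference was 0.690 to 0.863, so the 3′ signal was the higher one on every array. The part of that shift in the results was not tested, and the HOX medians are also given without those 2 arrays.

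No HOX gene passed the threshold. Of the 28 genes, 0 were called at an adjusted p below 0.05 by limma, over a background of 8.5% of all genes called, 4.03% higher and 4.47% lower with TGF-b1. At an unadjusted p below 0.05 there were 4 HOX genes, HOXC4, HOXB9, HOXC9 and HOXD4, all with a higher mean with TGF-b1, against 23.2% of all genes. HOXC4 was nearest to the threshold, at an adjusted p of 0.0501. The TGF-b1 minus untreated difference ran from -0.27 for HOXD13 to 0.30 for HOXC4, with a median of 0.0495 against -0.00271 over all genes. Its median size was 0.113 for HOX genes and 0.116 for all genes. The 95% intervals of the 28 differences ran from -0.589 at the lowest end to 0.593 at the highest. With both arrays numbered 1 left out, the count called was again 0 and the median difference was 0.0968. Without TGF-b1 array 2 alone the median was 0.0157.

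Promoter letters are shown for 3 windows of the RefSeq promoter table (GRCh38.p14), chosen after the values were seen. They are those of HOXC4, the gene nearest to the threshold, with its neighbour HOXC5, which the table gives the same start; of HOXD10, which has the only called HOX probe set; and of HOXD4, the other gene higher on every TGF-b1 array. Each window holds the 250 bases before the start, read 5′ to 3′ on the + strand. Capitals mark CCAAT boxes (CCAAT or ATTGG), bound by the NF-Y factor, and the SMAD pentamer (CAGAC or GTCTG). No marked match overlapped another. The windows are chr12:54016638-54016887 for HOXC4 and HOXC5, chr2:176116528-176116777 for HOXD10 and chr2:176151300-176151549 for HOXD4.
HOXC4 and HOXC5: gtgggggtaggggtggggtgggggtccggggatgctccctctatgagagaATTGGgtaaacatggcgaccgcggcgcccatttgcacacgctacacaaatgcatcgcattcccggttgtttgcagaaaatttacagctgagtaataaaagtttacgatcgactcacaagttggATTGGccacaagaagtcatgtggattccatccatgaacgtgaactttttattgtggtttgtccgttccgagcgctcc
HOXD10: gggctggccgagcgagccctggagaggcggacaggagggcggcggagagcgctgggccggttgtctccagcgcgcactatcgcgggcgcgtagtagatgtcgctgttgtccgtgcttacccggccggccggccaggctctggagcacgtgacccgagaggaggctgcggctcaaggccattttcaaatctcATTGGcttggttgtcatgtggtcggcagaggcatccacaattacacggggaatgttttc
HOXD4: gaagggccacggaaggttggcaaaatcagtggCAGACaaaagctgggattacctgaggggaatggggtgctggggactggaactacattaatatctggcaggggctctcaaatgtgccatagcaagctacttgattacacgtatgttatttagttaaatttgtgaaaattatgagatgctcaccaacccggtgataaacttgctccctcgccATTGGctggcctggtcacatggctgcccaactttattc

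The table matched 11 of the 28 HOX genes, in 10 distinct windows. Apart from HOXA2, HOXB1, HOXC4 and HOXC5 these were all HOXD genes, so the counts below say little about HOXB and HOXC promoters. A CCAAT box on either strand was in 8 of the 10 windows, and in 32.0% of the 34788 windows of the same length in the whole table. The SMAD pentamer was in 3 of the 10, those of HOXA2, HOXD12 and HOXD4, and in 38.0% of all windows. The GC box (GGGCGG or CCGCCC) was in 4 of the 10 against 42.6% of all, and the TATA box (TATAAA or TTTATA) in 1 of the 10 against 10.8% of all. The joint HOX and PBX motif TGATNNAT, or its reverse ATNNATCA, was in 3 of the 10 against 6.49% of all. A match of letters is a description and no evidence of a bound site. The HOXC4 and HOXC5 window holds CCAAT boxes at positions -200 and -77 from the start and no SMAD pentamer, and the HOXD4 window has its single pentamer at position -218.

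Across both groups, 21 of the 28 HOX genes had a mean over the 6 arrays above the median of all probe sets on every array, a share of 75% against 65.9% of all genes. That excess was smaller under other probe set rules. By untreated means, 17 of 28 HOX genes (60.7%) against 58.6% of all genes lay above with a gene's probe sets averaged, and 15 of 24 (62.5%) against 58.5% without probe sets that carry a shared-sequence suffix. The 21 genes were 8 of 10 HOXB genes, 8 of 9 HOXC genes, 5 of 8 HOXD genes and 0 of the 1 HOXA gene. The same 21 genes lay above when the untreated means alone were used. Probe sets differ in brightness for the same amount of RNA, so these levels do not order the genes. Nor does a level above the medians show that a gene was expressed. Of 11 endothelial and immune markers, PECAM1 was the brightest, with a mean of 5.67 over the 6 arrays. Of the HOX genes, 10 had a mean above it.

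**Figure D1:**
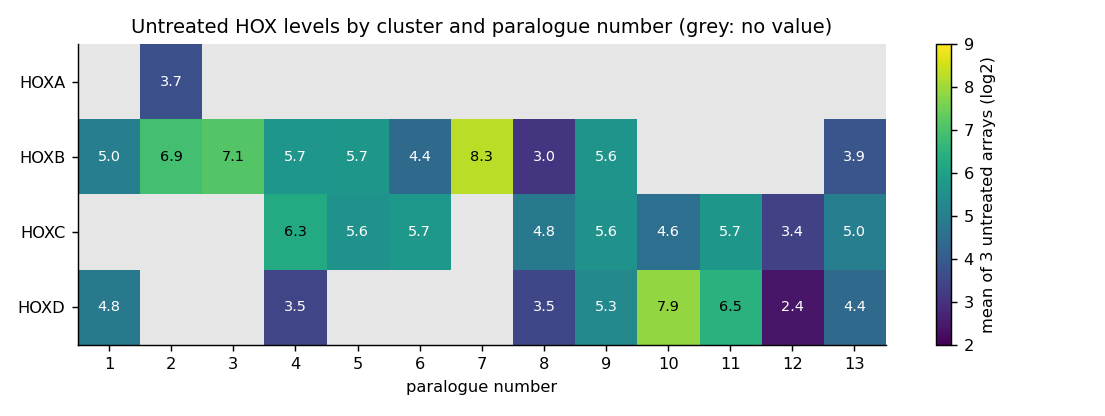
Mean log2 level over the 3 untreated arrays for each HOX gene, with clusters in rows and the paralogue number in columns; grey squares carry no value here. HOXB7 reads 8.29 and HOXB8 beside it 3.05, on probe sets that may differ in brightness, and both genes of paralogue number 12 lie below the array medians, which were between 4.15 and 4.18.

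By position, paralogue number 9 had 3 of 3 genes above the array medians, with untreated means from 5.29 to 5.63. Numbers 1, 5, 6, 10 and 11 had both of their genes above. Number 8 had 1 of 3, HOXC8, and its untreated means ran from 3.05 to 4.82. Number 12 had 0 of 2. Genes above the medians thus included both low and high numbers. The 7 genes not above the medians were HOXA2, HOXB8, HOXB13, HOXC12, HOXD4, HOXD8 and HOXD12, with means over the 6 arrays that ran down to 2.40 for HOXD12.

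**Figure D2:**
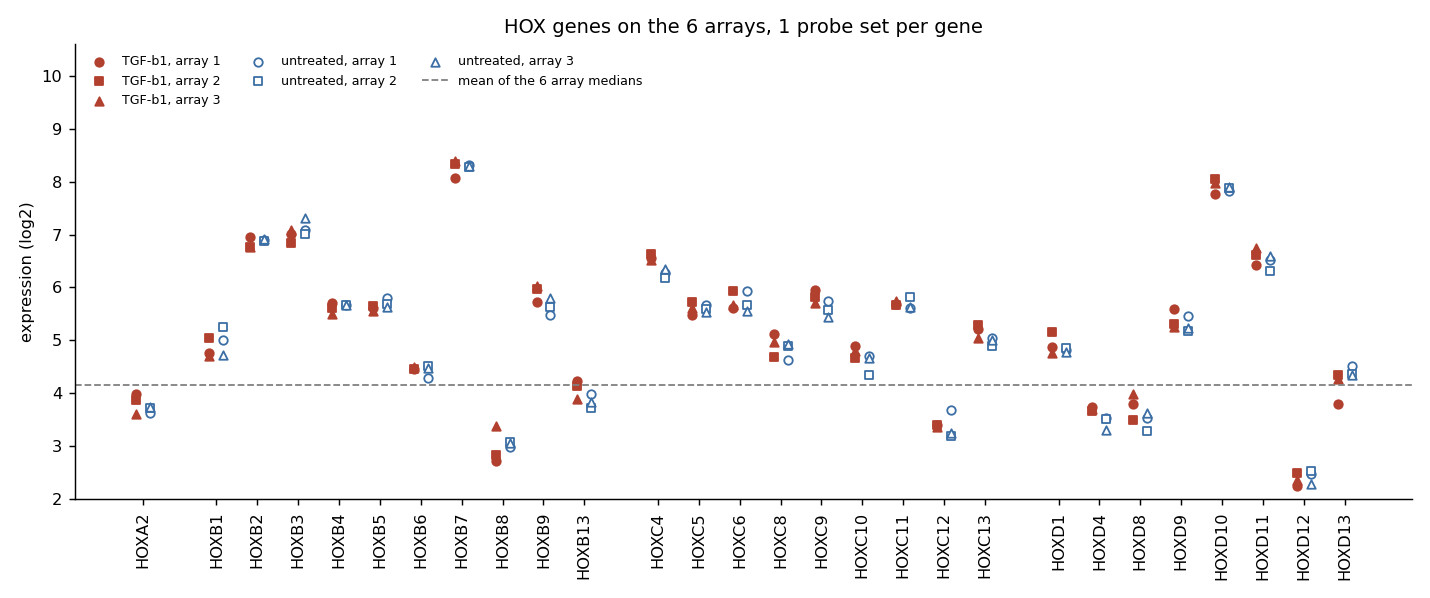
Log2 expression of each of the 28 HOX genes on the 6 arrays, with TGF-b1 arrays as filled symbols on the left of each pair and untreated arrays as open symbols on the right; the dashed line is the mean of the array medians. The groups overlap in all genes except HOXC4 and HOXD4, where the TGF-b1 arrays are higher, and HOXD13, where they are lower, so the groups were apart in 10.7% of HOX genes and in 29.2% of all genes.

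In the HOXB cluster, 3 of 10 differences were positive and 0 genes were called. With single arrays left out, 2 to 5 of the 10 were positive. The cluster median was -0.065, but -0.029 without TGF-b1 array 1, -0.043 without untreated array 2 and -0.040 without both arrays numbered 1. In 0 of the 10 genes did the groups not overlap, where 12.9% of all genes were higher and 16.3% lower on every TGF-b1 array. Its low-numbered genes pattern the hindbrain in the embryo. HOXB1, which specifies part of the hindbrain, had 4.76, 5.04 and 4.70 with TGF-b1 and 5.01, 5.25 and 4.73 untreated. HOXB2, which also acts in the hindbrain, had 6.95, 6.77 and 6.77 with TGF-b1 and 6.90, 6.88 and 6.92 untreated. HOXB3 had 7.003, 6.84 and 7.09 with TGF-b1 and 7.08, 7.01 and 7.30 untreated. The groups overlapped in all 3 genes, and the differences were -0.16 (HOXB1), -0.07 (HOXB2) and -0.15 (HOXB3).

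HOXB4, known for expanding blood stem cells when forced on, had 5.71, 5.62 and 5.49 with TGF-b1 and 5.66, 5.67 and 5.67 untreated. HOXB5 had 5.62, 5.65 and 5.56 with TGF-b1 and 5.80, 5.68 and 5.64 untreated. HOXB6 had 4.45, 4.45 and 4.50 with TGF-b1 and 4.30, 4.52 and 4.48 untreated. The 3 middle genes overlapped between groups, with differences of -0.06 (HOXB4), -0.10 (HOXB5) and 0.04 (HOXB6). HOXB7, a gene often raised in carcinomas, had 8.06, 8.34 and 8.40 with TGF-b1 and 8.31, 8.27 and 8.29 untreated. The untreated arrays were nearly equal and the TGF-b1 arrays fell on both sides of them, for a difference of -0.02 ± 0.098 (SE).

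HOXB9 had 5.72, 5.96 and 6.03 with TGF-b1 and 5.47, 5.63 and 5.80 untreated. Its lowest TGF-b1 array lay below its highest untreated array, and the difference was 0.27 ± 0.11 (SE, 3 arrays per group), with an unadjusted p of 0.0443 and an adjusted p of 0.202 by limma. Its second probe set, almost as bright, read the other way at -0.17, so the direction of HOXB9 depended on the probe set. HOXB13, a marker of prostate and hindgut and one of the genes not above the array medians, had probe sets at 0.23 and -0.22.

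In the HOXC cluster all 9 differences were positive, against 49.4% of all genes, and the cluster median was 0.105. None of the 9 was called. Single arrays moved several of the smallest differences across 0, and 5 to 9 of the 9 were positive when arrays were left out in turn, with 5 after removal of untreated array 3. Without both arrays numbered 1, 7 of 9 were positive and the median was 0.184, and it was 0.161 without untreated array 1 and 0.159 without untreated array 3. The 9 genes lie in 1 stretch of chromosome 12 and share the same 6 arrays, so they are not separate observations.

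HOXC4, known for its part in antibody gene diversification in B cells, had 6.57, 6.64 and 6.51 with TGF-b1 and 6.27, 6.18 and 6.36 untreated. Every TGF-b1 array was above every untreated array, as in 12.9% of all genes. The means were 6.57 ± 0.063 with TGF-b1 and 6.27 ± 0.089 untreated (SD, 3 arrays each), a difference of 0.30 ± 0.078 (SE) or 1.23-fold. By limma the unadjusted p was 0.00426 and the adjusted p 0.0501, just on the far side of the threshold. It was called under 5 of 17 other ways of processing and under 0 of the 6 in which 1 array was left out, where its adjusted p ran from 0.0798 to 0.163 and its difference from 0.26 to 0.35.

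The genes next to it stood otherwise. HOXC5, for which RefSeq gives the same start and hence the promoter window printed above, had 5.47, 5.73 and 5.60 with TGF-b1 and 5.67, 5.59 and 5.54 untreated. HOXC6 had 5.61, 5.93 and 5.66 with TGF-b1 and 5.94, 5.66 and 5.56 untreated. The groups of both genes were interleaved, with differences of 0.0018 ± 0.087 for HOXC5 and 0.013 ± 0.12 for HOXC6 (SE). The gap between HOXC4 and these neighbours was not itself tested.

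HOXC8, which acts in motor neurons and the skeleton of the trunk, had 5.11, 4.69 and 4.97 with TGF-b1 and 4.63, 4.90 and 4.93 untreated. HOXC9, a trunk gene that sets the identity of thoracic motor neurons in mouse and chick, had 5.94, 5.82 and 5.70 with TGF-b1 and 5.75, 5.57 and 5.44 untreated. HOXC10 had 4.90, 4.66 and 4.79 with TGF-b1 and 4.71, 4.34 and 4.66 untreated. The HOXC8 arrays were interleaved, while for HOXC9 and HOXC10 only the lowest TGF-b1 array fell below the highest untreated one. Their differences were 0.11 (HOXC8), 0.24 (HOXC9, unadjusted p 0.0469 and adjusted p 0.208 by limma) and 0.22 (HOXC10).

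HOXC11 had 5.68, 5.67 and 5.75 with TGF-b1 and 5.61, 5.83 and 5.64 untreated, a difference of 0.0082. HOXC13, the gene of the cluster that drives keratin genes of hair and nail, had 5.21, 5.28 and 5.04 with TGF-b1 and 5.05, 4.90 and 5.01 untreated. In HOXC13 1 untreated array lay just above the lowest TGF-b1 array, and the difference was 0.20 ± 0.088 (SE; limma adjusted p 0.230). HOXC12, not above the array medians, differed by 0.01.

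In the HOXD cluster 6 of 8 differences were positive, the median was 0.107 and 0 genes were called. With single arrays left out, 5 or 6 were positive, and the median was 0.058 without untreated array 2 and 0.058 without TGF-b1 array 2. Without both arrays numbered 1, 7 of 8 were positive and the median was 0.134. HOXD1, a gene of pain-sensing neurons in mouse, had 4.88, 5.17 and 4.77 with TGF-b1 and 4.82, 4.85 and 4.78 untreated. HOXD9 had 5.59, 5.30 and 5.26 with TGF-b1 and 5.46, 5.19 and 5.23 untreated. Both genes overlapped between groups, at differences of 0.12 and 0.09. HOXD9 was highest on the array numbered 1 in both groups.

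HOXD10, which with its neighbours shapes the limb skeleton, had 7.77, 8.05 and 7.97 with TGF-b1 and 7.82, 7.89 and 7.89 untreated on its brightest probe set. The groups overlapped there and the difference was 0.06 ± 0.087 (SE). Its second probe set had 5.29, 5.54 and 5.59 with TGF-b1 and 4.99, 4.96 and 5.04 untreated, with no overlap. That difference was 0.47 ± 0.099 (SE) or 1.39-fold, with a limma adjusted p of 0.0403 over all 54675 probe sets, of which 3.24% were called. The third probe set differed by 0.15 with overlapping groups. The second was the single called probe set of the 44 for HOX genes, and the 3 probe sets of HOXD10 thus gave unequal differences of the same sign.

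HOXD11, a gene of the forearm skeleton in mouse, had 6.42, 6.62 and 6.75 with TGF-b1 and 6.53, 6.32 and 6.59 untreated. The groups overlapped and the difference was 0.12. HOXD13, which patterns the digits and is mutated in synpolydactyly, had 3.81, 4.34 and 4.27 with TGF-b1 and 4.52, 4.36 and 4.35 untreated. All 3 TGF-b1 arrays were below the untreated ones, as they were for 16.3% of all genes, with array 1 by far the lowest and array 2 only just below. The difference was -0.27 ± 0.14 (SE; limma adjusted p 0.296), while its 2 dimmer probe sets differed by 0.20 and 0.17. Without TGF-b1 array 1 the difference was -0.10, and without both arrays numbered 1 it was -0.050.

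Of the HOXD genes not above the array medians, HOXD4 had 3.74, 3.67 and 3.70 with TGF-b1 and 3.53, 3.51 and 3.31 untreated. The groups did not overlap, and the difference was 0.26 ± 0.083 (SE; limma unadjusted p 0.0147, adjusted p 0.106). Its other, dimmer probe set differed by -0.06. HOXD8 and HOXD12 differed by 0.27 and -0.06 with overlapping groups.

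**Figure D3:**
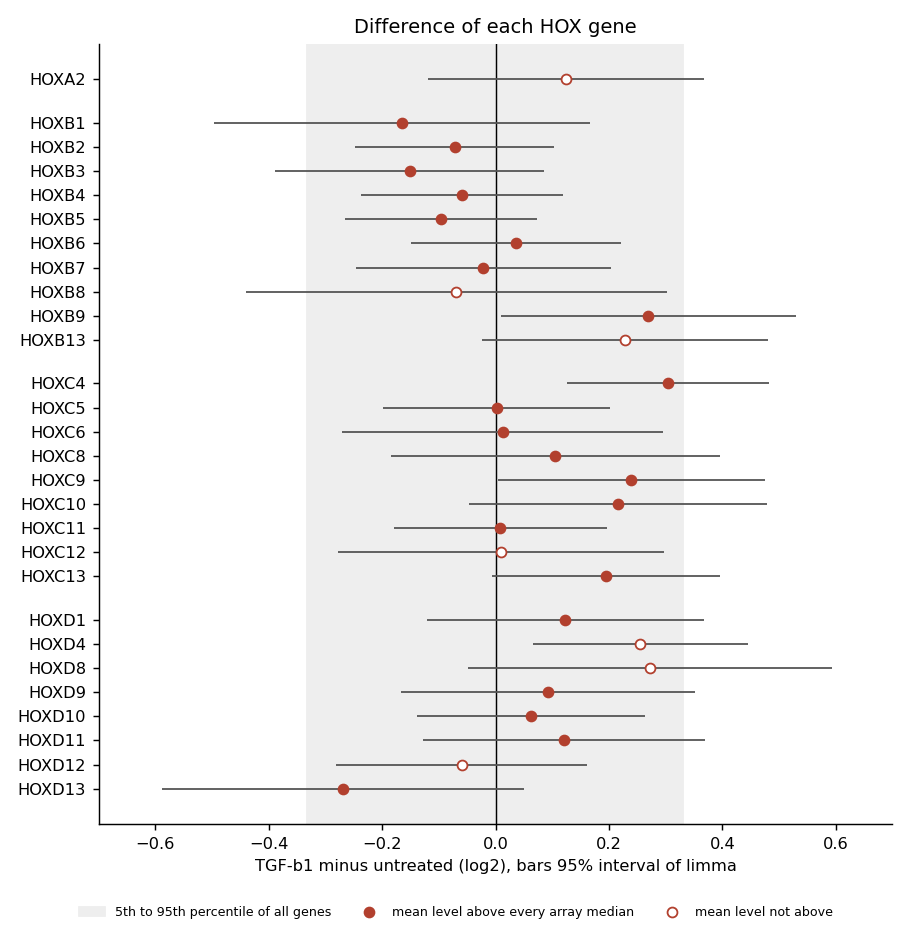
TGF-b1 minus untreated difference (log2) of each HOX gene with its 95% interval from limma, in cluster order; filled points have a mean level above every array median, and the grey band holds the 5th to 95th percentile of all genes, -0.33 to 0.33. All 28 points lie inside the band, and the intervals of HOXB9, HOXC4, HOXC9 and HOXD4 do not reach 0.

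Probe sets of the same gene often gave different answers. There were 15 genes with 1 probe set and 13 with more, and 7 of the 28 representatives carry a suffix that marks sequence shared with other transcripts, among them HOXB7 and HOXC6. Of the 16 probe sets that did not represent their gene, 1 was called. HOXB1, HOXB3, HOXB5 and HOXD9 had the same sign on all probe sets within a narrow range. HOXB7 had differences of -0.02, 0.07 and -0.15 on 3 bright probe sets.

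**Figure D4:**
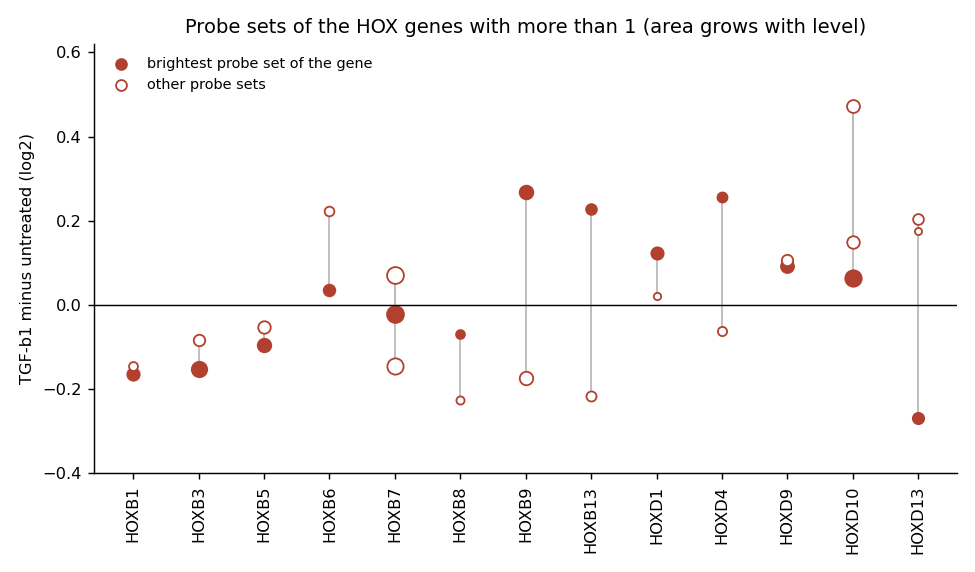
TGF-b1 minus untreated difference (log2) on each probe set of the 13 HOX genes with more than 1, where filled points are the brightest probe set of the gene and the area of a point grows with its level. The second probe set of HOXD10 is the highest point at 0.47, and HOXB7, HOXB9, HOXB13, HOXD4 and HOXD13 have probe sets on both sides of 0.

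Genes that work with HOX proteins showed no called change in the cofactor class. The list held 11 TALE genes, the PBX, MEIS and PKNOX cofactors together with TGIF1 and TGIF2. Of these, 10 were measured and 0 were called, with a smallest adjusted p of 0.122 (limma). Over all genes 8.5% were called, and 0 of 10 is near that share. At an unadjusted p below 0.05 there were 2, MEIS2 and TGIF1, against 23.2% of all genes. The differences largest in size were those of MEIS2 and MEIS1, partners of HOX and PBX proteins, at -0.21 and 0.20, and of TGIF1, a TALE protein that restrains SMAD-driven transcription, at -0.20. Of the 16 Trithorax and demethylase genes 0 were called by limma. At an unadjusted p below 0.05 there were 4, against the same 23.2% of all genes. That list had 1 higher and 2 lower calls with a trended and robust variance, and 0 higher and 1 lower with the array number as a replicate block, without TGF-b1 array 1 and without both arrays numbered 1. Of the 6 caudal and paraHox genes, the relatives of HOX genes that include CDX2, 0 were called and 0 had an unadjusted p below 0.05. A list of 6 genes is too short to set such counts against the shares of all genes.

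Polycomb genes changed in both directions: of 17 measured of 21 listed, 2 rose and 3 fell (limma, adjusted p below 0.05), against 4.03% of all genes higher and 4.47% lower. All 17 lay above the array medians, against 65.9% of all genes. When only genes above the median of all probe sets were fitted, 2298 of 13085 were called, a larger share than the 8.5% of all genes. The Polycomb counts there were again 2 higher and 3 lower. The shares of all genes are thus a low reference for this list. The median Polycomb difference was -0.109 in the main fit, and -0.023 without both arrays numbered 1. EZH2, the methyltransferase that places the silencing mark, had 7.28, 7.37 and 7.41 with TGF-b1 and 7.78, 7.68 and 7.74 untreated. All TGF-b1 arrays were lower, by a difference of -0.38 ± 0.072 (SE), adjusted p 0.0173. SUZ12, a core subunit of the same complex, had 9.14, 9.17 and 9.19 with TGF-b1 and 9.46, 9.40 and 9.44 untreated, a difference of -0.27, adjusted p 0.0433. PHC3, a subunit of the other Polycomb complex, had 7.61, 7.70 and 7.70 with TGF-b1 and 8.12, 8.04 and 8.11 untreated, a difference of -0.42, adjusted p 0.0094.

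JARID2, which recruits the EZH2 complex to DNA, stood the other way, with 8.995, 9.22 and 9.30 with TGF-b1 and 8.58, 8.69 and 8.72 untreated. Its difference was 0.50 ± 0.095 (SE), adjusted p 0.0168, and a second bright probe set differed by 0.48. CBX2, a Polycomb protein that binds the silencing mark, rose by 0.32 (adjusted p 0.0439), but its other 3 probe sets differed by 0.12, -0.07 and -0.07, and the mean of all 4 by 0.075 (adjusted p 0.583). Without both arrays numbered 1, the Polycomb calls were 1 higher and 0 lower. Only PHC3 was called whichever single array was left out. EZH2 was called only when TGF-b1 array 1 or TGF-b1 array 3 was the one left out, JARID2 and CBX2 only when it was TGF-b1 array 1, and SUZ12 in none of these 6 fits. Their adjusted p rose to as much as 0.0669 (EZH2), 0.0647 (JARID2), 0.131 (CBX2) and 0.129 (SUZ12). PHC3 was at -0.19 (adjusted p 0.202) as the mean of its 5 probe sets, and JARID2 at 0.015 on its only probe set without a shared-sequence suffix, a dim one at a level of 3.93.

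Retinoic acid genes held the largest difference of these lists. Of 15 measured of 17 listed, 3 rose and 1 fell, against 4.03% of all genes higher and 4.47% lower. STRA6, the cell surface receptor that takes up retinol, had 6.89, 6.95 and 6.95 with TGF-b1 and 5.74, 5.93 and 5.98 untreated. The groups were far apart, at a difference of 1.05 ± 0.083 (SE), adjusted p 2.8e-04 by limma. That probe set carries a shared-sequence suffix, and the others of STRA6, at levels of 3.96 and 2.50, differed by 0.18 and 0.03.

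RDH10, which oxidises retinol on the way to retinoic acid, had 6.32, 6.46 and 6.51 with TGF-b1 and 5.87, 5.83 and 5.95 untreated. All TGF-b1 arrays were higher, at 0.55 ± 0.079 (SE), adjusted p 0.0053, and a second probe set differed by 0.50. Its remaining probe sets, dim at levels of 3.84 and 1.95, differed by 0.22 and -0.12. The mean of all RDH10 probe sets differed by 0.29 (limma adjusted p 0.0228). CYP26B1, which degrades retinoic acid, rose by 0.37 (adjusted p 0.0397) on its brighter probe set and differed by -0.11 on the other, with a mean of both at 0.13 (adjusted p 0.414). DHRS3, which turns retinal back to retinol, fell by 0.52 (adjusted p 0.0439). RDH10 and STRA6 were called whichever single array was left out. CYP26B1 was called in none of these 6 fits and DHRS3 in 1, the one without untreated array 1, with adjusted p of up to 0.116 and 0.146. Without both arrays numbered 1 the count was 2 higher and 0 lower.

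Transcripts that run antisense to HOX genes had 1 call in 11 measured of 18 listed, a share of 9.09% near the 8.5% of all genes. HOTTIP, the long noncoding RNA at the 5′ end of the HOXA cluster, had 5.33, 5.19 and 5.31 with TGF-b1 and 5.01, 5.01 and 4.85 untreated. The groups did not overlap, and the difference was 0.32 ± 0.080 (SE), adjusted p 0.0465, rising to as much as 0.152 when single arrays were left out, which ended the call each time. Its other 2 probe sets, both dim, differed by 0.12 and -0.10, and the mean of all 3 by 0.11 (adjusted p 0.389). HAGLR, the antisense RNA beside HOXD1, had 7.18, 7.14 and 7.38 with TGF-b1 and 7.09, 6.94 and 6.89 untreated. It was higher on every TGF-b1 array but was not called (0.26, adjusted p 0.130). HOTAIR, the antisense RNA of the HOXC cluster, had a mean of 2.39 over the 6 arrays and a difference of -0.04.

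Protein-coding genes next to the clusters had 1 call in 16 measured of 17 listed, a share of 6.25% against 8.5% of all genes. HIBADH, a valine breakdown enzyme beyond the HOXA cluster, had 8.91, 8.86 and 8.90 with TGF-b1 and 9.14, 9.17 and 9.25 untreated. All TGF-b1 arrays were lower, at -0.30 ± 0.069 (SE), adjusted p 0.0365, and the call was lost when any 1 array was left out (adjusted p of up to 0.128). The mean of its 3 probe sets differed by -0.18 (adjusted p 0.116).

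**Figure D5:**
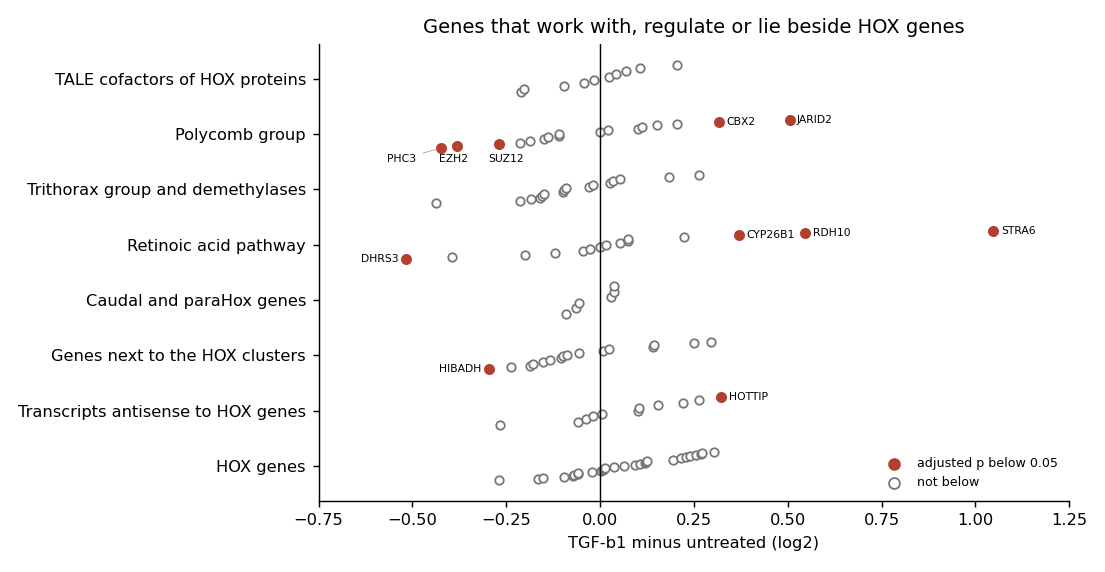
TGF-b1 minus untreated difference (log2) of each measured gene in 7 lists related to HOX genes and, in the last row, of the 28 HOX genes; filled points passed an adjusted p of 0.05 by limma over all genes and are named. The HOX row has no filled point, and STRA6 at 1.05 is the point farthest to the right.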

How the data were processed

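The authors deposited log2 expression values for 6 Affymetrix 3′ arrays; Affymetrix Expression Console and RMA are named in the submitters' processing notes. RMA corrects background, quantile-normalises the arrays and summarises probes, which compresses differences of dim probe sets. Detection calls were not used here, and the number of arrays limits the precision. Probe sets were named from the platform annotation: 41097 of 54675 carried 1 symbol and 1801 several, of which 3 named a HOX gene and were not used. Cluster sizes, chromosomes and promoters came from RefSeq tables of GRCh38.p14. Two-sided tests between the groups used the eBayes step of limma 3.58.1 (R 4.3.3) with no covariate, with Benjamini-Hochberg adjustment over 19775 genes, and the fit was tested on simulated data.

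The HOX genes and all related lists were chosen with earlier results of these data known. Every HOX gene called or with a mean above the median of all probe sets on every array was described with its 6 values; others were examples or counted. From the other lists, called genes were named, 4 at most by smallest p; CBX2 as the fifth Polycomb call and MEIS1, MEIS2, TGIF1, HAGLR, HOTAIR and CDX2 were named after their values were seen. Same-numbered arrays deviated together with correlations of 0.199, 0.056 and 0.0907, of which 1 passed the minimum of 0.1, so numbers were not treated as pairs. Yet 5 of the 6 arrays correlated best with the same-numbered array of the other group, so a link by number remains possible. Alternatives were other normalizations, filters, probe set rules and variance models, a replicate block, single arrays left out and, added after seeing the data, both arrays numbered 1 left out.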

Additional observations from a re-analysis of the deposited data

How the results depend on the processing

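Of 17 alternatives, 11 left the count of called HOX genes at 0. It was 1, in each case higher with TGF-b1, for HOXC4 with quantile normalization repeated (adjusted p 0.0433), only genes above the median of all probe sets (0.0233), probe sets of a gene averaged (0.0402), trended and robust variance (0.0288) and array weights (0.0367), and 1 for the second HOXD10 probe set when every probe set was tested. With the replicate block the count was 0, the median HOX difference 0.0495, and 1280 genes were called in all. Of the called genes in the related lists, SUZ12, CBX2, CYP26B1, HIBADH and HOTTIP lost their calls with that block (limma adjusted p 0.054 to 0.080). EZH2, JARID2, PHC3, RDH10, DHRS3 and STRA6 kept theirs. The median was 0.0778 without probe sets marked as shared (24 HOX genes left), 0.0244 with the brightest probe set chosen in untreated arrays, 0.0968 without both arrays numbered 1, and 0.0157 to 0.0645 with single arrays left out. The cause of these shifts was not tested. Over all genes, 1680 were called, against 2630 with the trended and robust variance, 1005 without probe sets marked as shared and 627 without both arrays numbered 1.

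For 16 of the 28 HOX genes the sign of the difference held under every alternative, and 27 of 465 values compared changed sign. HOXB7 was 0.0193 with repeated quantile normalization, 0.0235 with array weights and 0.0907 without both arrays numbered 1. HOXC11 was -0.00541 with array weights, HOXD13 0.0365 as the mean of its probe sets, and HOXB9 -0.173 with the probe set brightest in untreated arrays. Without both arrays numbered 1, HOXB6 was -0.0245, HOXB8 0.0363, HOXC8 -0.0815, HOXC11 -0.0238 and HOXD12 0.0206. With single arrays left out, the ranges that crossed 0 were -0.0316 to 0.0817 for HOXB6, -0.0872 to 0.0816 for HOXB7, -0.276 to 0.0625 for HOXB8, -0.0616 to 0.0665 for HOXC5, -0.0850 to 0.122 for HOXC6, -0.0336 to 0.0761 for HOXC11, -0.0830 to 0.161 for HOXC12 and -0.00844 to 0.177 for HOXD9. None of these 12 genes was called under any alternative.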
